A study of Mus musculus with 6 samples.

Results

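The genes of the constitutive proteasome were taken as every probe set of the table whose platform symbol starts with Psma, Psmb, Psmc or Psmd followed by a digit, with the interferon-inducible subunits Psmb8, Psmb9 and Psmb10 left out. The rule gave 36 of 19505 named genes, each with 1 probe set. Of these, 15 belong to the core particle (Psma and Psmb) and 21 to the regulatory particle (Psmc and Psmd). The pattern also takes in genes outside what the name describes. Psmc3ip encodes a cofactor of meiotic recombination and no subunit, Psma8 and Psmb11 encode subunits of testis and thymus proteasomes, and Psmd5, Psmd9 and Psmd10 encode chaperones that help to assemble the regulatory particle. They were kept in all counts, and Psmb5 was not analysed here.

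The samples were microglia, the macrophages that live in brain tissue, taken from female C57BL/6 mice at the peak of experimental autoimmune encephalomyelitis (EAE), a model of multiple sclerosis. All mice had received 100 μg of recombinant myelin oligodendrocyte glycoprotein in incomplete Freund's adjuvant and 2 injections of 300 ng of pertussis toxin, the second after 48 h. The 3 control arrays carry the genotype label control, and the 3 CKO arrays the label of a conditional knock-out in B cells, which the series title links to GM-CSF-expressing B cells. The sources used here do not give the knocked-out allele, the Cre driver, the age or the number of mice behind each sample. The p-values therefore measure how these samples vary, and that variation may be technical. Each array holds 22206 log2 values, and 3 arrays per group limit the precision.

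The proteasome is the barrel-shaped protease that degrades proteins tagged with ubiquitin. Its core is built of outer rings of alpha subunits, which form the gate, and inner rings of beta subunits, some of which carry the cleaving sites. The regulatory particle docks on the outer ring; its ATPases unfold the substrate, and its other subunits bind and remove ubiquitin. In cells that receive interferon, as microglia do in neuroinflammation, inducible beta subunits take the places of the constitutive catalytic ones, and the resulting immunoproteasome supplies peptides for MHC class I.

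The arrays did not share one distribution of values. The middle 50% of all values spanned 3.66 to 4.0 log2 units on 4 arrays, but 3.08 on CKO replicate 2 and 3.11 on CKO replicate 3. In the brighter 50% of the table, which holds 34 of the 36 genes, the median difference from the control mean was 0.033, -0.23 and -0.26 on the CKO arrays in order of their number. Microglial markers were present on every array (7 of 8 measured, 2 lower, list mean 16.47 to 16.94 in control and 16.76 to 17.50 in CKO). List means of some other cell types moved. Of 8 T cell markers, 6 were measured and all 6 were lower (8.68 to 10.83 in control, 6.43 to 7.22 in CKO). All 7 of 7 monocyte markers were lower too (13.22 to 14.05 and 11.56 to 12.37). B and plasma cell markers, of which 5 of 6 were measured, were lower in 5 of 5 cases (7.13 to 8.19 in control and 5.42 to 6.69 in CKO), with the antibody chain gene Jchain at -4.98 (limma adjusted p = 0.121). Astrocyte markers (7 of 7 measured, 2 lower) ranged from 9.35 to 12.07 in control and from 9.89 to 13.64 in CKO, with the highest mean on CKO replicate 1. Oligodendrocyte markers (4 of 5, 0 lower) ranged from 8.66 to 11.04 and from 9.45 to 11.67, and neuron markers (6 of 6, 0 lower) from 8.06 to 9.95 and from 8.87 to 11.08. Neutrophil markers (4 of 5, 3 lower) overlapped, at 15.5 to 16.0 in control and 15.3 to 15.8 in CKO. So did endothelial markers (5 of 5, 3 lower), at 8.37 to 9.02 and 8.06 to 8.49. No marker was at 0. The part of these cell types and of the narrow arrays in the results was not tested, and in such bulk RNA fewer cells of a type and less RNA per cell cannot be told apart.

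Most proteasome subunit genes had slightly lower means in CKO microglia, and none passed the test over the whole table; after quantile normalization 12 of 15 core genes but 10 of 21 regulatory particle genes had lower means. Of the 36 genes, 31 had a lower mean in CKO in the deposited values, compared with 44.5% of all probe sets and 58.9% of the brighter 50%. No such share was taken for the quantile-normalized values, where the median over all probe sets was 0.014. The median log2 difference between CKO and control was -0.21 over the 36 genes, 0.063 over all probe sets and -0.11 over the brighter 50%. In the two-sided limma test with Benjamini-Hochberg adjustment over all 22206 probe sets, 0 of 36 genes passed an adjusted p of 0.05, which 0.00901% of probe sets did. An unadjusted p under 0.05 was reached by 1 gene, Psma7, and by 9.89% of probe sets. The lower means depended on the scaling and on 2 arrays: 22 of 36 genes were lower after quantile normalization, and 15 of 36 with CKO replicates 2 and 3 left out, a setting that holds 1 CKO array and assumes that it varies as the controls do. Without CKO replicate 1, which leaves the 2 narrow CKO arrays, 4 of 36 genes passed at an adjusted p of 0.05. They were Psma7, Psmb2, Psmb4 and Psmc4, all lower. In that setting 2209 of all 22206 probe sets passed, 1096 of them lower and 1113 higher. Leaving out 1 array turned the sign or altered the difference by over 1.5 times in 31 of 36 genes; the other 5 were Psma1, Psma2, Psma4, Psma7 and Psmb2.

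**Figure D1:**
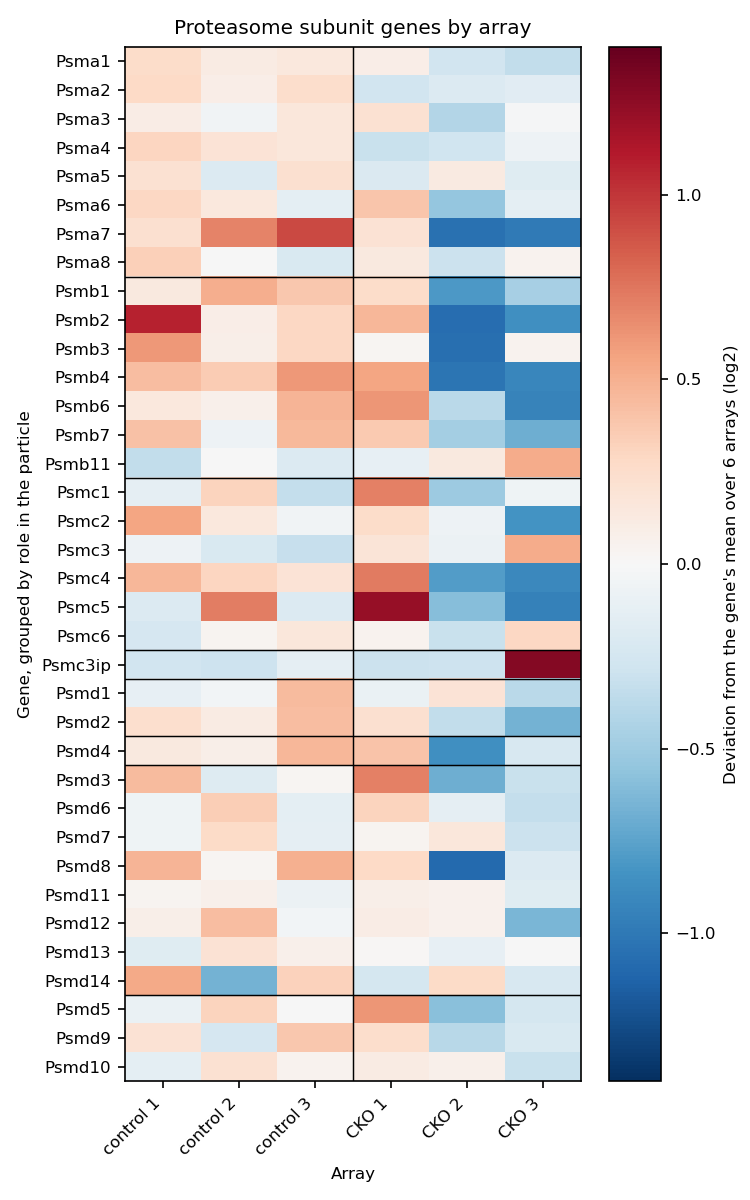
Deviation of each of the 36 genes from its own mean over the 6 arrays (log2, colour), with genes in rows grouped by role in the particle and arrays in columns. The inner ring genes Psmb1 to Psmb7 are blue mainly on CKO replicates 2 and 3, whereas CKO replicate 1 resembles the controls.

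The genes of the outer alpha ring, which gates the barrel, had lower CKO means in 8 of 8 cases, and in 6 of 8 after quantile normalization. Their median log2 difference was -0.27, in a range from -1.22 to -0.073. Psma7 stood out. Its values were 9.07, 9.54 and 9.77 in control and 9.05, 7.81 and 7.86 in CKO, in the order of replicate 1, 2 and 3 here as in all that follows. CKO replicates 2 and 3 lay more than 1 log2 unit below every control, while CKO replicate 1 lay just under the lowest control. The difference was -1.22 (SE 0.40, limma adjusted p = 0.358). Psma4 showed a smaller and more even difference, from 12.92, 12.81 and 12.77 to 12.31, 12.34 and 12.55 (-0.43, SE 0.25, limma adjusted p = 0.585). Psma2 had the same form, with 10.91, 10.73 and 10.88 in control and 10.37, 10.44 and 10.47 in CKO (-0.41, SE 0.25). For these 2 genes all 3 CKO arrays lay below all controls, CKO replicate 1 included.

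Other alpha subunits differed less. Psma1, at 11.72, 11.57 and 11.61 against 11.55, 11.19 and 11.12, also had groups that did not overlap, by a gap of 0.02 (-0.35, SE 0.26). Psma3 was at 10.27, 10.12 and 10.32 in control and 10.38, 9.76 and 10.15 in CKO (-0.14, SE 0.28), so its groups overlapped, and its sign turned after quantile normalization (0.042). Psma5 and Psma6 differed by -0.16 and -0.20, with overlapping groups. The testis subunit gene Psma8 ranged from 5.30 to 5.93 over all arrays and lay at or below the lower quartile of 4 of the 6 arrays, so its level is uncertain.

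In the inner beta ring, all 6 genes other than the thymus gene Psmb11 had lower CKO means (median log2 difference -0.67, range -0.97 to -0.46), as they had after quantile normalization (median -0.46). Psmb2, a subunit without a cleaving site, was at 11.88, 10.90 and 11.10 in control and 11.27, 9.74 and 9.95 in CKO (-0.97, SE 0.46, limma adjusted p = 0.528). Psmb4, which closes the ring during assembly, was at 10.62, 10.54 and 10.79 and at 10.74, 9.16 and 9.27 (-0.93, SE 0.43, limma adjusted p = 0.522). In both genes CKO replicate 1 lay inside the range of the controls, and the other CKO arrays lay below every control. Psmb1, also structural, was at 11.45, 11.83 and 11.70 in control and 11.57, 10.51 and 10.85 in CKO (-0.68, SE 0.33), with CKO replicate 1 again among the controls. Psmb3 was at 10.86, 10.33 and 10.54 and at 10.28, 9.19 and 10.30 (-0.65, SE 0.37); here the groups did not overlap, by a gap of 0.03, and the difference was -0.29 without CKO replicate 2.

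The constitutive catalytic subunits followed the same arrays. Psmb6, which cleaves after acidic residues, was at 11.27, 11.19 and 11.59 in control and 11.74, 10.74 and 10.18 in CKO, a difference of -0.46 (SE 0.41, limma adjusted p = 0.701) that was -0.11 without CKO replicate 3. Psmb7, which cleaves after basic residues, was at 11.53, 11.05 and 11.57 and at 11.49, 10.64 and 10.44 (-0.53, SE 0.35, limma adjusted p = 0.623). For Psmb6 the highest of all values belonged to CKO replicate 1, and the lowest to CKO replicate 3. Relative to the control mean, the 6 beta genes had a median of 0.033 on CKO replicate 1, -1.27 on CKO replicate 2 and -1.06 on CKO replicate 3. Without CKO replicates 2 and 3, 3 of the 6 were lower and 3 higher (median 0.033). The thymus catalytic gene Psmb11, at 5.35, 5.68 and 5.5 in control and 5.57, 5.83 and 6.21 in CKO, was the 1 core gene with a higher mean (0.36, SE 0.28) and lay at or below the lower quartile on 4 arrays.

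Over the core as a whole, 5 of 15 genes had groups that did not overlap, all lower in CKO (Psma1, Psma2, Psma4, Psma7 and Psmb3), beside 8.48% of all probe sets and 14.2% of the brighter 50%. None had all CKO arrays above all controls, as 5.94% of all probe sets had. CKO replicate 2 lay below every control in 13 of the 15 genes and CKO replicate 3 in 10, beside 46.7% and 47.7% of the brighter 50% (30.1% and 30.8% of all probe sets). CKO replicate 1 lay below every control in 6 of 15, of which 5 are Psma genes, beside 27.6% of the brighter 50%. For Psma1, Psma5 and Psma7 it lay just under the lowest control (11.55 against 11.57, 9.53 against 9.54 and 9.05 against 9.07). In the regulatory particle 0 of 21 genes had groups that did not overlap. There CKO replicate 2 lay below every control in 11 of 21 genes, CKO replicate 3 in 14 and CKO replicate 1 in 1. The lid subunit gene Sem1, whose symbol the pattern does not match, is not among the 21. Its CKO arrays all lay below all controls (-0.92).

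**Figure D2:**
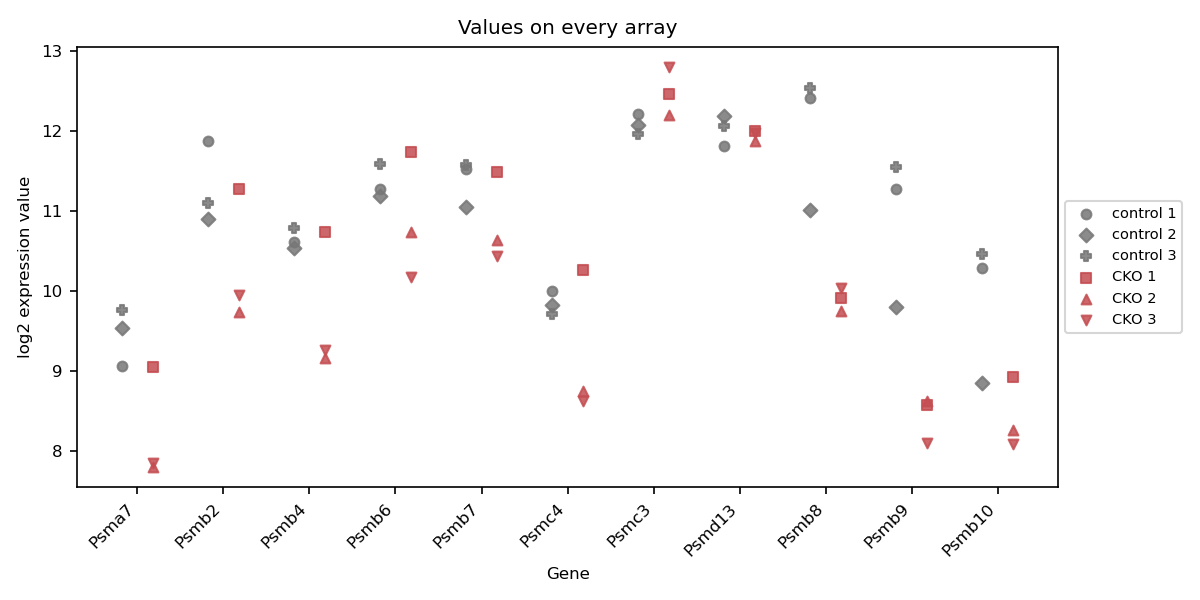
Values of 11 genes on every array (log2 expression, points; grey for control, red for CKO, 1 symbol per array); levels of different genes are not comparable. CKO replicate 1 (squares) sits near the controls for Psmb2, Psmb4, Psmb6, Psmb7 and Psmc4 and with the other CKO arrays for Psmb8 and Psmb9.

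In the base of the regulatory particle, the genes of the ATPase ring, which unfolds and feeds the substrate, went both ways, with 3 of 6 lower and 3 higher (median -0.097; 5 of 6 lower after median centring of the arrays). Psmc4 had the lowest difference, at 10.0, 9.83 and 9.72 in control and 10.26, 8.75 and 8.63 in CKO (-0.64, SE 0.44, limma adjusted p = 0.633). Psmc2 was at 11.51, 11.11 and 10.91 and at 11.22, 10.89 and 10.13 (-0.43, SE 0.35), or -0.12 without CKO replicate 3. At the other end, Psmc3 was at 12.21, 12.07 and 11.96 in control and 12.46, 12.20 and 12.80 in CKO, a difference of 0.41 (SE 0.28, limma adjusted p = 0.63). This difference kept its sign, between 0.25 and 0.65, in the settings tried that can alter it. Only for Psmc3 among the subunit genes of this ring did all 3 CKO arrays lie above the control mean, and even there CKO replicate 2 lay just below the highest control. The neighbouring ATPase genes Psmc1 (0.097), Psmc6 (0.020) and Psmc5 (-0.21) had overlapping groups. Psmc5 varied most of all 36 genes within a group, from 7.95 on CKO replicate 3 to 10.12 on CKO replicate 1. On that array all 6 ATPase genes were above the control mean, with a median of 0.40, beside the highest astrocyte list mean. Psmc3ip, the gene that encodes no subunit, stood at 7.20 to 7.37 on 5 arrays and at 8.78 on CKO replicate 3, and its difference of 0.46 was -0.065 without that array.

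The non-ATPase genes were lower in CKO in 14 of 14 cases, but by little (median -0.17, range -0.67 to -0.017), and 7 of 14 were lower after quantile normalization. Psmd2, a base scaffold on which factors carrying ubiquitylated cargo dock, was at 10.81, 10.69 and 11.0 in control and 10.79, 10.22 and 9.91 in CKO (-0.53, SE 0.31, limma adjusted p = 0.588). Its fellow scaffold Psmd1 was at 10.32, 10.40 and 10.88 and at 10.34, 10.63 and 10.06 (-0.19, SE 0.30). Psmd4, a ubiquitin receptor, was at 10.07, 10.02 and 10.40 in control and 10.33, 9.08 and 9.71 in CKO (-0.46, SE 0.36), and its difference was -0.14 without CKO replicate 2. Each of these had overlapping groups, with CKO replicate 1 inside the control range.

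Among the lid genes, 8 of 8 had lower means with a median of -0.12, but 2 of 8 after quantile normalization. Psmd8, a structural lid subunit, had the lowest difference of the 14 genes, at 11.23, 10.78 and 11.25 in control and 11.03, 9.67 and 10.56 in CKO (-0.67, SE 0.38, limma adjusted p = 0.58). The difference was -0.29 without CKO replicate 2. Psmd14, the deubiquitinase that removes the ubiquitin chain before degradation, was at 10.51, 9.32 and 10.30 and at 9.73, 10.25 and 9.75 (-0.13, SE 0.37, limma adjusted p = 0.913). Its lowest value was that of control replicate 2, and the sign turned without control replicate 1 (0.10) and after quantile normalization (0.042). Psmd11, at 11.32, 11.36 and 11.20 in control and 11.37, 11.34 and 11.12 in CKO, differed by -0.017 (SE 0.25). Psmd7, the partner of Psmd14, was at 11.96, 12.29 and 11.89 and at 12.06, 12.18 and 11.72 (-0.060, SE 0.28). For both genes the CKO arrays covered about the same range as the controls. The remaining lid genes Psmd3, Psmd6, Psmd12 and Psmd13 differed by -0.19, -0.097, -0.32 and -0.070, and the assembly chaperones Psmd5, Psmd9 and Psmd10 by -0.14, -0.23 and -0.083, all with overlapping groups.

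**Figure D3:**
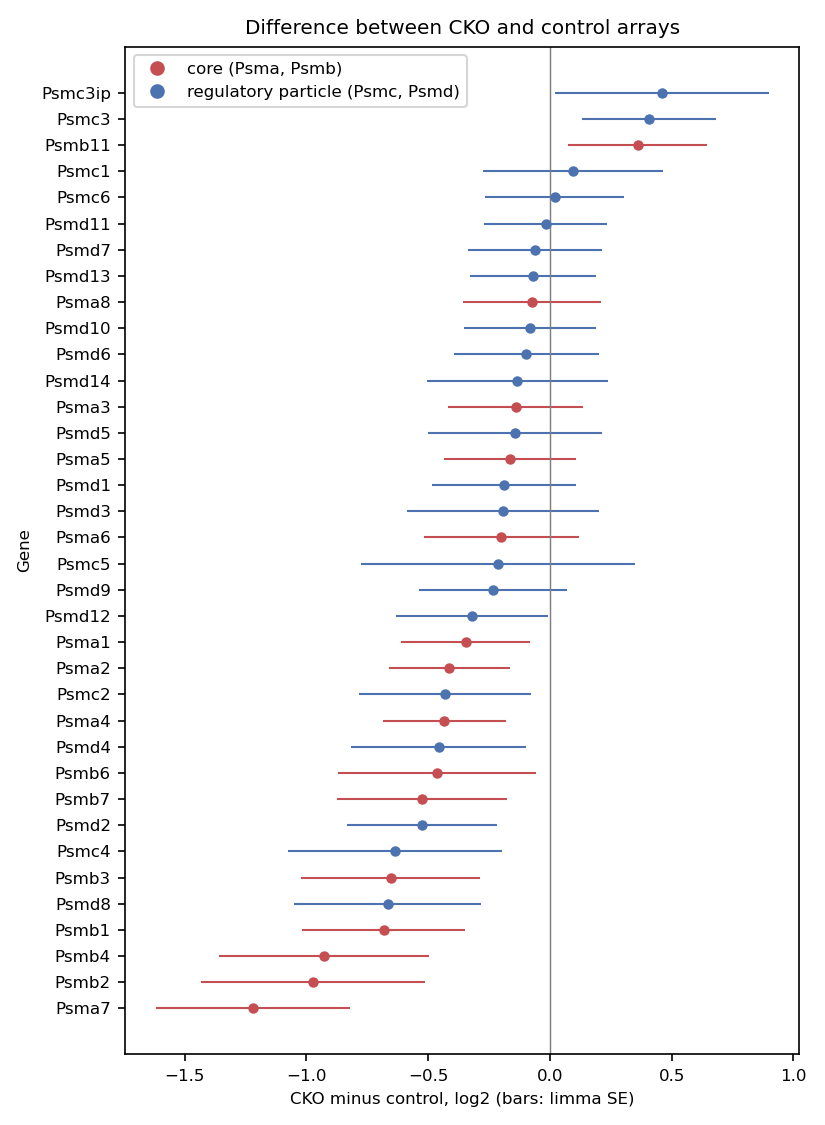
Difference between the CKO and control means of each of the 36 genes (log2, points, bars show the limma standard error), core genes in red and regulatory particle genes in blue. The lowest differences belong to the core genes Psma7, Psmb2, Psmb4 and Psmb1, and the highest to Psmc3ip, Psmc3 and the thymus gene Psmb11.

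Set side by side, the core had a median log2 difference of -0.43 and the regulatory particle one of -0.14, which leaves -0.29 between them; after quantile normalization the medians were -0.25 and 0.011. Relative to the median of all probe sets, which median centring moved from 0.063 to -0.060, the core stood at -0.50 and the regulatory particle at -0.21. Relative to the median of the brighter 50%, which holds 34 of the 36 genes, the core stood at -0.35 and the regulatory particle at -0.03. Per array, the median core value minus the median regulatory particle value was 0.59, 0.33 and 0.27 in control (0.40 ± 0.17, SD, n = 3) and 0.24, -0.27 and 0.21 in CKO (0.06 ± 0.29, n = 3). All CKO arrays lay below all controls in this measure, with 0.03 between the nearest, and the difference was -0.34. It was -0.17 without CKO replicate 2, -0.18 without the dimmest 50% of probe sets, and -0.093 when the testis and thymus subunits and the assembly chaperones were left out. With that last list the medians of the log2 differences were -0.46 in the core and -0.16 in the regulatory particle. Computed from each gene's deviation from its own mean, the same per-array measure was 0.33, -0.027 and 0.22 in control and -0.020, -0.12 and 0.083 in CKO, and the groups overlapped. The separation of core and regulatory particle is therefore within the spread between arrays by the second measure, and members of a particle are not replicates, so no test was made of it.

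Immunoproteasome subunits, which replace Psmb6 and Psmb7 and their partner in the inner ring, had another pattern over the arrays than the constitutive ones. Psmb9, which takes the place of Psmb6, was at 11.28, 9.80 and 11.55 in control and 8.58, 8.63 and 8.10 in CKO (-2.44, SE 0.46, limma adjusted p = 0.121). Psmb10, which takes the place of Psmb7, was at 10.29, 8.85 and 10.47 and at 8.93, 8.27 and 8.09 (-1.44, SE 0.46, limma adjusted p = 0.35). Psmb8 was at 12.41, 11.02 and 12.54 and at 9.91, 9.75 and 10.04 (-2.09, SE 0.42, limma adjusted p = 0.135). The inducible genes were low on CKO replicate 1 as on the other CKO arrays (median -2.08, -2.24 and -1.95 from the control mean), unlike the constitutive beta genes on that array, and control replicate 2 was the lowest control for all 3. For Psmb10 the groups overlapped, since CKO replicate 1 lay above control replicate 2. Psmb9 minus Psmb6, a difference of log2 values on the same array, was 0.01, -1.39 and -0.04 in control and -3.16, -2.11 and -2.08 in CKO. All CKO arrays were lower (difference -1.98, exact two-sided permutation p = 0.1, the smallest that 3 against 3 arrays can give). For Psmb10 minus Psmb7 the values were -1.24, -2.20 and -1.10 in control and -2.56, -2.37 and -2.35 in CKO, again without overlap (difference -0.91, exact permutation p = 0.1); both p-values are 0.1 when adjusted over the 2 pairs. T cell, monocyte and B and plasma cell list means were lower on the same 3 CKO arrays. Control replicate 2 had the lowest T cell (8.68 against 10.83 and 10.82) and monocyte (13.22 against 14.05 and 14.04) list means of the controls, and their highest astrocyte (12.07) and oligodendrocyte (11.04) means. The part of these cells in the inducible genes' values was not tested.

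**Figure D4:**
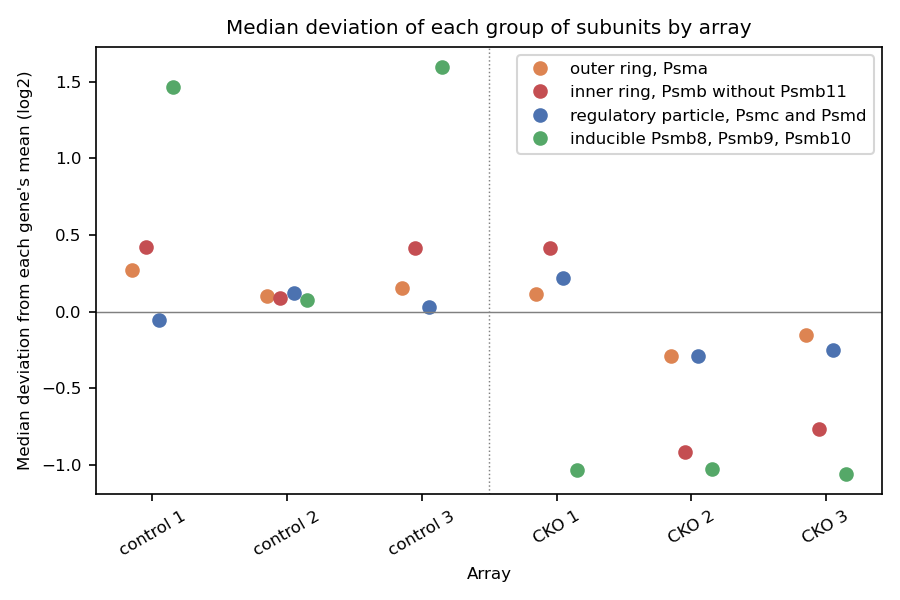
Median deviation of each group of subunits from the genes' own means (log2) on each array, for the outer ring (orange), the inner ring without Psmb11 (red), the regulatory particle (blue) and the inducible subunits (green). The inner ring lies at 0.42 on CKO replicate 1 and at -0.92 and -0.77 on CKO replicates 2 and 3, whereas the inducible subunits are between -1.06 and -1.03 on all 3.

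Other genes around the proteasome were read from a list of 44, of which 33 were measured. In all, 25 were lower and 8 higher in CKO, with a median of -0.33, and 0 passed the limma test over the whole table. The 25 include the 3 inducible subunits described above. A lower mean was found for 44.5% of all probe sets and 58.9% of the brighter 50%, whose median differences were 0.063 and -0.11. At an unadjusted p under 0.05, 6.35% of all probe sets and 11.1% of the brighter 50% were lower. Of the listed genes, 7 reached that p, all of them lower. Apart from the 3 inducible subunits, these were Psme1, Psme2, Sem1 and Faf1. Psme1 and Psme2 form the interferon-inducible activator that opens the gate of the core. Psme1 was at 16.15, 15.15 and 16.48 in control and 14.87, 13.99 and 14.63 in CKO (-1.43, SE 0.41, limma adjusted p = 0.286), and Psme2 at 13.51, 13.11 and 13.72 and at 12.70, 12.79 and 12.74 (-0.70, SE 0.27, limma adjusted p = 0.457). Both had all CKO arrays below all controls; Psme2 can share probes with its near copy Psme2b. Sem1, a small lid subunit whose symbol the pattern does not match, was at 11.91, 11.64 and 11.42 and at 11.04, 10.53 and 10.64 (-0.92, SE 0.28, limma adjusted p = 0.327). Faf1, a partner of the unfolding enzyme Vcp, differed by -0.82 (SE 0.28, limma adjusted p = 0.394).

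The rest of the list did not reach an unadjusted p under 0.05 in the limma test. The activator gene Psme4 and Psmf1, an inhibitor of the core, differed by -0.59 (SE 0.27) and -0.88 (SE 0.40). Psmf1 was at 11.62, 11.15 and 11.39 in control and 11.34, 10.36 and 9.81 in CKO, with CKO replicate 1 inside the control range, as for the beta genes. Pomp, which guides assembly of the beta ring, showed the same order, at 10.91, 10.70 and 11.04 and at 10.88, 10.0 and 9.37 (-0.80, SE 0.39, limma adjusted p = 0.538), while the other 4 core assembly genes lay between -0.45 and 0.22. Nfe2l1, the transcription factor that raises subunit genes when proteolysis is impaired, was at 12.46, 13.17 and 12.11 in control and 13.09, 12.30 and 12.45 in CKO (0.033, SE 0.37). Its groups covered nearly the same range. The other genes measured from the list for transcription of subunits, Nfe2l2 and Ngly1, had all CKO arrays below all controls. Nfe2l2 was at 9.09, 9.53 and 9.11 in control and 8.8, 8.33 and 8.84 in CKO (-0.59, SE 0.29, limma adjusted p = 0.537). Ngly1 differed by -0.25 (SE 0.25, limma adjusted p = 0.737), and its highest CKO value was 7.56 against a lowest control value of 7.61. Of the 5 shuttle factor genes measured, which bring ubiquitylated cargo to the particle, 3 were lower and 2 higher.

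Promoters of 29 of the 36 genes were found in the RefSeq promoter table (GRCm38.p6), and the 250 bases before each start were searched for 5 short motifs on both strands. They are given because core and regulatory particle genes were set against each other above. The letters CCGGAAG, bound by ETS factors, occurred in 9 of 18 regulatory particle genes (50%), 1 of 11 core genes (9.09%) and 7.83% of 27025 genes with a promoter in the table. The match in the core, in Psma6, lies before an internal start, 14603 bases downstream of the outermost one. With only the outermost start listed for each gene, the counts were 9 of 18, 0 of 11 and 7.07%. That start can itself be internal. The 1 start listed for Psmd2, counted here, lies inside the gene, which begins at base 20651122 of chromosome 16 in RefSeq. Psma3, counted below for CCAAT, begins at base 70969283 of chromosome 12, also before its listed start. CCAAT, bound by NF-Y, occurred in 6 of 18 (33.3%), 7 of 11 (63.6%) and 37.5%. TGACNNNGC, the antioxidant response element read by Nfe2l1, was in 3 of 18, 1 of 11 and 11.5%. GAAA, any 2 bases and GAAA again, of the interferon-stimulated response element, was in 2 of 18, 1 of 11 and 3.46%, and TTCNNNGAA, the gamma-activated site, in 0 of 29 and 8.13%. Among the inducible genes only the TTCNNNGAA of Psmb8 and the CCAAT of Psmb9 were found. Up to 30 bases on each side are shown for 6 regulatory particle subunits and then for the core genes Psma6 (its internal start) and Psma7, all 5′ to 3′ on the strand of the gene, with the motif in capitals (CTTCCGG is CCGGAAG read on the other strand; CCAAT in Psma7).
Psmc1, chr12:100110144-100110201, plus strand: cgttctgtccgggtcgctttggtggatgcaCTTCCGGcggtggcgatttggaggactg
Psmc2, chr5:21785161-21785227, plus strand: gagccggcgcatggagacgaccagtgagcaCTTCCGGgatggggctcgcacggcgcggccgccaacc
Psmc6, chr14:45329694-45329760, plus strand: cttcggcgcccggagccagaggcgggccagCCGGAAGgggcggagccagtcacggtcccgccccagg
Psmd2, chr16:20651596-20651651, plus strand: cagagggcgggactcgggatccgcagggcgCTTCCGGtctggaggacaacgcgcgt
Psmd4, chr3:95042703-95042769, minus strand: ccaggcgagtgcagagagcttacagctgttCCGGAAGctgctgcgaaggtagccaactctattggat
Psmd6, chr14:14120954-14121020, minus strand: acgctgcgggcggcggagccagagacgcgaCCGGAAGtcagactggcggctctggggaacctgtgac
Psma6, chr12:55398663-55398729, plus strand: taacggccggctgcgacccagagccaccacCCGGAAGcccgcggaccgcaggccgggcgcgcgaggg
Psma7, chr2:180042626-180042690, minus strand: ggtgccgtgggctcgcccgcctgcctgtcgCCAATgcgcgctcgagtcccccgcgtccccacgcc
The genes with CCGGAAG include both signs of the difference, from Psmd2 (-0.53) to Psmc1 (0.097) and Psmc3ip (0.46). Members without a promoter entry were not searched, and the part of any motif in the differences was not tested. A match describes letters only and shows no binding.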

How the data were processed

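Brain microglial RNA from 3 control and 3 CKO samples was hybridised to Affymetrix arrays after whole-transcript labelling. The deposited table holds log2 values that the authors made with RMA, per the submitters' processing notes; no source used here states its version, settings or build. Probe sets were named from the platform annotation (19572 with 1 symbol, 0 with several, 2634 unnamed here), and all 36 members matched a mouse RefSeq gene table. CKO was compared with control by limma 3.58.1 (R 4.3.3), using lmFit and untrended eBayes with group as the sole term; tests were two-sided, with Benjamini-Hochberg adjustment over 22206 probe sets and a threshold of 0.05. The fit was tested on simulated data. Fold changes are log2 differences of group means, and groups do not overlap when all 3 CKO arrays lie on one side of all controls.

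Members and lists were chosen with earlier results of these data known. The rule for giving values on every array named Psmb6, Psmb7, Psmd1, Psmd2, Psmd4, Psmd14 and the members with the smallest p per direction (up to 6). It also named the 2 lowest and 2 highest differences of each family, and 9 of the other proteasome genes. Of these, Psma8, Psmc1, Psmc3ip, Psmc6, Faf1 and Psme4 are given only by a difference or a range. Psma1 and Psma2, named for their groups, were chosen after their values were seen. Pomp, Nfe2l1, Nfe2l2 and Ngly1 also lie outside the rule. Alternatives were a threshold of 0.1, an unmoderated two-group fit, a trimmed member list, omission of each array in turn, blocking on the replicate number, array weights, a robust fit with trend, removal of the dimmest 20% or 50%, and centring on medians or quantile normalization. Leaving out Psmc3ip or the pairs of arrays, and counting motifs at outermost starts alone, was chosen after seeing the data.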

Additional observations from a re-analysis of the deposited data

How the results depend on the processing

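With 3 arrays per group, no member passed an adjusted p of 0.05, and Psma8 and Psmb11, near the lower quartile, have no value without the dimmest 50%. The cause of the changes below was not tested. The whole table gave 2 calls, all lower; it gave 1 after quantile normalization or without the dimmest 20% or 50%, 3 after median centring, 4 with a trended robust fit, 1694 with array weights, 44 at an adjusted p under 0.1 and 0 in the plain two-group fit. Leaving out single arrays gave 0 to 2209 calls, the highest without CKO replicate 1, which leaves the narrow CKO arrays alone; 125 came without control replicate 2 and 0 without CKO replicates 2 and 3. Without both control replicate 2 and CKO replicate 1 there were 2516. Of the 36 members, 3 passed with array weights (Psma7, Psmb2, Psmb4), beside 1694 of 22206 probe sets (1057 lower). Without CKO replicate 1, 4 passed (the same with Psmc4), beside 2209 of 22206 (1096 lower). The same 4 passed with control replicate 2 also left out, beside 2516 of 22206 (1395 lower). All were lower, and 0 passed in every other setting run that kept 2 or more CKO arrays.

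Without CKO replicates 2 and 3 the core median became -0.023 and that of the regulatory particle 0.073. Per array, core minus regulatory particle became -0.093 without the tissue-restricted subunits and the assembly chaperones, -0.17 without CKO replicate 2 and -0.18 without the dimmest 50%; without those subunits and chaperones the medians of differences were -0.46 and -0.16. Each gene has 1 probe set, so averaging probe sets alters nothing, and Psmc3ip alters the regulatory particle median only from -0.14 to -0.17.

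Signs turned for genes near 0 and, without CKO replicates 2 and 3, for genes with larger differences such as Psmb4 (-0.93) and Psmc4 (-0.64). Quantile normalization gave 0.042 for Psma3, 0.011 for Psmd1, 0.21 for Psmd11, 0.042 for Psmd14 and 0.18 for Psmd7. Median centring gave -0.027 for Psmc1 and -0.10 for Psmc6, and array weights -0.064 for Psmc1. Without CKO replicates 2 and 3 the values were 0.14 (Psma3), 0.10 (Psma8), 0.090 (Psmb4), 0.39 (Psmb6), 0.11 (Psmb7), 0.043 (Psmc2), -0.070 (Psmc3ip), 0.41 (Psmc4), 0.077 (Psmd11), 0.17 (Psmd4) and 0.013 (Psmd7). With 1 array or the pair of control replicate 2 and CKO replicate 1 left out, the range was -0.34 to 0.028 for Psma3, -0.20 to 0.073 for Psma8, -0.23 to 0.37 for Psmc1, -0.065 to 0.73 for Psmc3ip, -0.12 to 0.18 for Psmc6, -0.063 to 0.062 for Psmd11, -0.50 to 0.10 for Psmd14 and -0.16 to 0.073 for Psmd7.

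With the replicate number as a block, 0 probe sets and 0 members were called. The labels do not say whether equal numbers pair the arrays. Deviations of same-numbered arrays correlated across probe sets at -0.0055, -0.23 and 0.25, and control replicate 2 was closest to CKO replicate 1 (0.30). These correlations showed no pairing but cannot exclude it. Deviations within a group sum to 0, and CKO replicates 2 and 3 were alike (r = 0.97).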
